A study of Mus musculus with 8 samples.

Results

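Water moves across the membranes of the kidney tubule through aquaporins, and the share reabsorbed in the collecting duct is set by vasopressin. The genes described here are 9 aquaporins (Aqp1, Aqp2, Aqp3, Aqp4, Aqp5, Aqp6, Aqp7, Aqp8 and Aqp11) and Avpr2, the vasopressin receptor of the tubule. They were taken by symbol from a table of read counts per gene and make up 10 of its 22609 genes. RNA-Seq was performed on the kidney cortex of 4 aged male mice (30 months) and 4 young male mice (5 months) of the C57BL6 strain, with one library per mouse. The ages are those of the sample labels, and the study's methods put the mean age of the aged group somewhat higher. The labels give no transgene and no treatment for either group. Between 14820804 and 19821429 reads were counted on genes in each library.

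Aqp1 is the constitutive water channel of the proximal tubule and thin descending limb. In principal cells of the collecting duct, vasopressin binds Avpr2, a receptor coupled to the stimulatory G protein, and the cyclic AMP that follows drives phosphorylation of Aqp2, its insertion into the apical membrane and, over longer times, its transcription. Aqp3 and Aqp4 let the water out on the basolateral side. The other members have narrower roles: Aqp6 sits in vesicles of acid-secreting intercalated cells, Aqp7 carries glycerol and water in the last part of the proximal tubule (S3) and in fat cells, Aqp11 is an intracellular channel of the proximal tubule, and Aqp5 and Aqp8 are best known from glands and from the gut and liver.

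None of the 9 members that could be tested was called different between aged and young mice. Calls required both a Benjamini-Hochberg adjusted p under 0.05 in edgeR and a change of more than 1.5-fold. Of the 13944 genes tested, 287 (2.06%) met this, 163 of them higher (1.17%) and 124 lower (0.889%) in aged mice. By the adjusted p alone the count was also 0 of 9, against 411 genes (2.95%), of which 210 were higher (1.51%) and 201 lower (1.44%). One member, Aqp11, had an unadjusted p below 0.05, beside 3557 of all genes tested (25.5%), and it was also the 1 member whose groups did not overlap, beside 2630 genes (18.9%). DESeq2 and limma-voom also called 0 of the 9, and in each the member with an unadjusted p below 0.05 was again Aqp11 alone. Aqp5 was below the filter on low counts. Where later lists give a count at an unadjusted p below 0.05, the share over all genes tested is the same 25.5%.

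**Figure D1:**
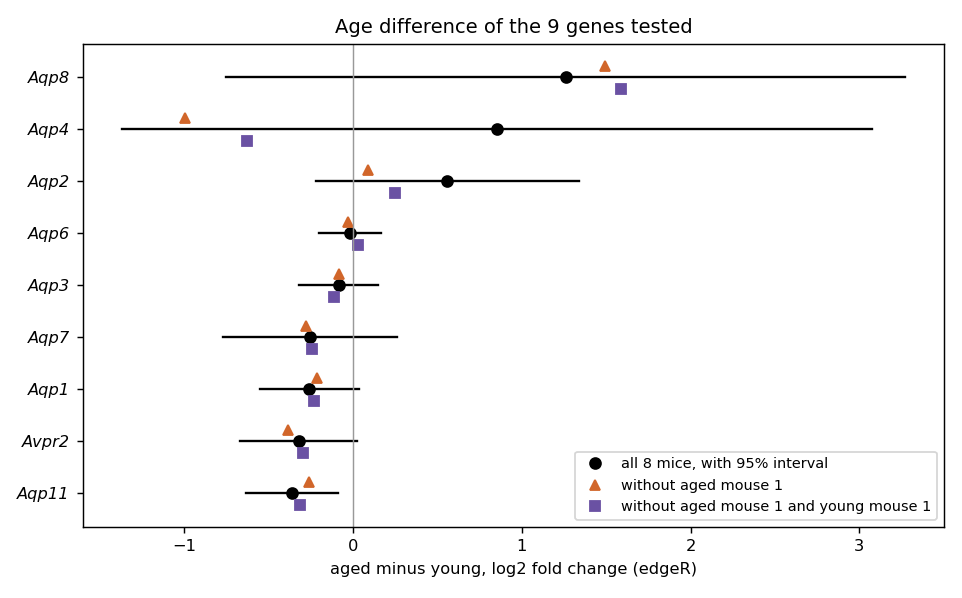
The log2 fold change (aged minus young) of the 9 tested genes, as points with 95% intervals from all 8 mice; triangles leave out aged mouse 1 and squares leave out aged mouse 1 and young mouse 1. The interval of Aqp11 lies below 0, and the point of Aqp4 moves from 0.85 to -0.996 without aged mouse 1.

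In mm9, the build to which the authors aligned the reads, Aqp2 (ENSMUSG00000023013) occupies chr15:99409487-99414976, Aqp5 (ENSMUSG00000044217) chr15:99421280-99425260 and Aqp6 (ENSMUSG00000043144) chr15:99431831-99435908, all on the plus strand. Aqp2 and Aqp5 are separated by 6303 bases, and Aqp5 and Aqp6 by 6570 bases, so the principal-cell gene, the gland gene and the intercalated-cell gene follow one another. Aqp7 (ENSMUSG00000028427, chr4:40980107-40995172) and Aqp3 (ENSMUSG00000028435, chr4:41039755-41045216) form another pair on the minus strand, 44582 bases apart. Aqp1 (ENSMUSG00000004655) lies at chr6:55286426-55298549, Aqp8 (ENSMUSG00000030762) at chr7:130605808-130611517 and Aqp11 (ENSMUSG00000042797) at chr7:104874889-104886757. Avpr2 (ENSMUSG00000031390, chrX:71137441-71140841, plus strand) overlaps L1cam and Arhgap4 on the opposite strand, and the authors counted by strand. Of the 10 genes only Aqp7 held sequence with near-identical copies elsewhere in mm9, in 1.77% of its transcript windows, so its counts are slightly uncertain.

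The promoters of Aqp2 and Aqp3 are printed because the pair serves the 2 faces of the same cell and differs in these data, Aqp2 varying more from mouse to mouse than Aqp3. Each window runs from 250 bases before to 50 bases after the RefSeq start in GRCm38.p6, at chr15:99578806-99579105 on the plus strand for Aqp2 and chr4:41098134-41098433 on the minus strand for Aqp3. Capitals mark the motifs found. In Aqp2 these are the cyclic AMP response element half-site TGACG, read on the minus strand, with its first base at -211, and the GATA factor motif AGATAA, also on the minus strand, at -202. In Aqp3 the capitals mark the TATA box letters TATAAA at -29.
Aqp2: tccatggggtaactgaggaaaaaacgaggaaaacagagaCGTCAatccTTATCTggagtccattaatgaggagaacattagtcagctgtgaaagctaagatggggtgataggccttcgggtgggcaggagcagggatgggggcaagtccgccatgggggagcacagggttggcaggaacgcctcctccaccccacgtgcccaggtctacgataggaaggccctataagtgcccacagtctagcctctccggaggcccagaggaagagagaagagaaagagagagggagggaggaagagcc
Aqp3: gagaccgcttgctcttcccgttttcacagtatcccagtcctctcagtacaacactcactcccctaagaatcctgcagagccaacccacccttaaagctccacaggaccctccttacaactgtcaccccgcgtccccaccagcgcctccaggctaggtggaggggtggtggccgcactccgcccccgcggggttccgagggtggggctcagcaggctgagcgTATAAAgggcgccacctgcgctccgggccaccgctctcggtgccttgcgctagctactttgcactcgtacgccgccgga

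On either strand, the half-site is present in 20.8%, AGATAA in 11.2% and TATAAA in 13.6% of 32851 mouse promoter windows of this length, so each match is common. The full element TGACGTCA, found in 1.79% of windows, was in neither promoter, and TGGAAA, the opening letters of the tonicity-responsive enhancer and of NFAT sites (21.4% of windows), was also in neither. RefSeq windows were at hand for 9 of the 10 genes, all but Aqp4. The Aqp7 windows held AGATAA and TGGAAA and that of Avpr2 held TATAAA on the minus strand, while the windows of Aqp1, Aqp5, Aqp6, Aqp8 and Aqp11 held none of the 5 motifs.

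Levels of different genes were compared only per length, as CPM (counts scaled to a common library size with edgeR's TMM factors) divided by the kilobases of the transcript with the longest coding sequence (FPKM). Aqp1 led in every mouse. In the young mice the order of mean levels was Aqp1 at 273 ± 44.8 FPKM (SD, n = 4), Aqp2 at 71.0 ± 15.8, Aqp3 at 45.9 ± 4.22, Aqp11 at 34.4 ± 2.72 and Aqp6 at 18.1 ± 1.60. Below them came Aqp7 at 9.18 ± 2.26, Avpr2 at 7.05 ± 1.25, Aqp4 at 6.41 ± 3.62, Aqp8 at 0.352 ± 0.130 and Aqp5 at 0.0280 ± 0.0188. The first 5 did not overlap in the young mice and did not overlap one another in the aged mice. In the aged mice Aqp4, between 0.615 and 36.4 FPKM, overlapped both Aqp6 and Aqp11. Aqp7, Avpr2 and Aqp4 overlapped in each age group and cannot be ranked beyond their spread. The same order held for the first 5 in 7 of the 8 mice. The exception was aged mouse 1, in which Aqp4 stood above Aqp11 at 36.4 FPKM.

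**Figure D2:**
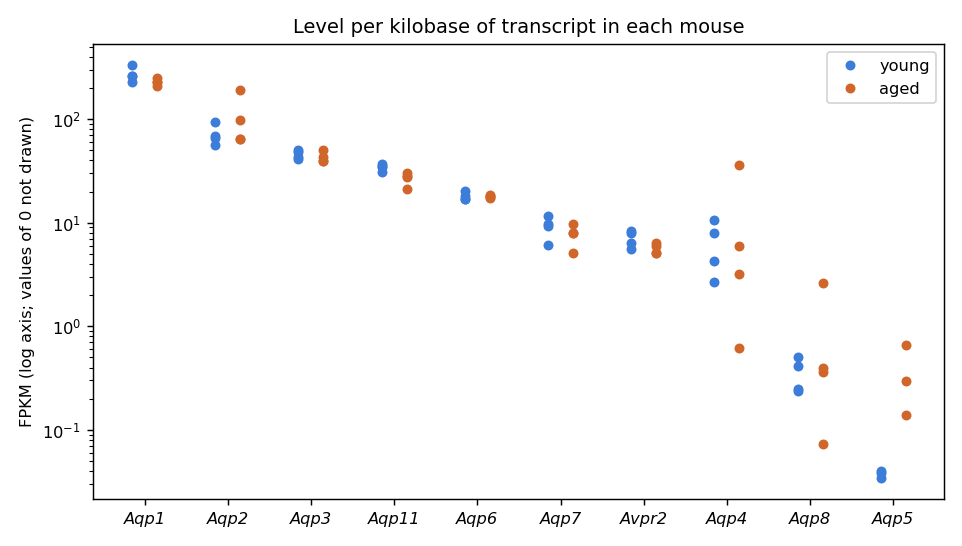
FPKM of each gene in each mouse on a log axis, with young and aged mice side by side. Aqp1 lies highest in all 8 mice, between 208 and 336 FPKM, and Aqp4 has the widest spread of the genes above 1 FPKM, from 0.615 to 36.4 FPKM.

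Of the summed FPKM of the 10 genes, Aqp1 made up between 52.6% and 64.5% in 7 mice and 39.0% in aged mouse 1. Aqp2 made up between 12.6% and 22.5% in those 7 mice and 35.8% in aged mouse 1. That library stood apart in other ways too. It lay at -71.5 on the first principal component of all genes (48.1% of the variance), and the summed level of 9 markers of the first parts of the proximal tubule (S1 and S2) was 11710 CPM in it, against 21410 to 26010 in the other mice. Slc14a2, the vasopressin-regulated urea transporter of the inner medulla, had 1817 counts in aged mouse 1 and 433 in young mouse 1, and between 0 and 6 in the other 6 libraries. Upk1b, a uroplakin of the lining of the pelvis, had 453 counts in aged mouse 1 and at most 16 elsewhere. The 7 genes of the inner medulla and papilla list summed to 174 CPM in aged mouse 1, 61.95 CPM in young mouse 1 and 24.4 to 33.6 CPM in the other mice. One of the 7, Ptgs1, passed the filter and had an adjusted p of 0.553, and Akr1b3 was listed at 0 in every library. The labelled cortex of aged mouse 1 therefore held RNA of inner medulla and papilla genes. In young mouse 1 this held for Slc14a2 and, at 35 counts, for Slc6a12 of the same list. The Upk1b, Krt5 and Upk3a counts of young mouse 1, at 13, 12 and 10, lay near those of aged mouse 2, at 16, 23 and 7. Log2 fold changes of members below that moved by more than 1.5 times without aged mouse 1 are given with and without it. Outside the members a second value is given for some genes only.

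Aqp1 was measured at 606, 688, 693 and 884 CPM in the young mice and at 547, 595, 600 and 659 CPM in the aged mice. The means were 718 ± 118 and 600 ± 45.7 CPM (SD, n = 4 each). The ranges overlap, since the lowest young mouse lay below the highest aged mouse. The log2 fold change was -0.26 (SE 0.13, 95% interval -0.55 to 0.034, adjusted p = 0.2402 in edgeR), and -0.14 without young mouse 4. In a bulk sample such as this, fewer proximal tubule cells and less RNA per cell cannot be told apart. Of the 9 markers of S1 and S2, 0 passed the adjusted p in edgeR and 3 had an unadjusted p below 0.05. Set against their mean log2 level, Aqp1 differed by -0.16 between aged and young mice (exact permutation test, two-sided, p = 0.543, adjusted over 9 members p = 0.808). That direction turned to 0.45 with the median of the list in place of its mean, and without aged mouse 1 the difference was -0.32.

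Aqp11, whose loss in mice leads to vacuolated proximal tubules and cystic kidneys, was measured at 40.4, 46.0, 46.9 and 48.8 CPM in the young mice and at 27.8, 36.4, 37.5 and 40.2 CPM in the aged mice. Every aged mouse lay below every young mouse, though the highest aged and lowest young values differ by little. The means were 45.5 ± 3.60 CPM in young and 35.4 ± 5.37 CPM in aged mice, and the log2 fold change was -0.36 (SE 0.12, 95% interval -0.63 to -0.091). The unadjusted p was 0.0145 and the adjusted p 0.112 in edgeR, rank 1803 among the genes tested. Leaving out aged mouse 1 and young mouse 1 gave -0.31 (adjusted p = 0.0961). Against the S1 and S2 markers the difference was -0.29 (exact permutation test, p = 0.0857, adjusted p = 0.257), and it turned to 0.32 when the median of the list replaced its mean.

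Aqp8 was near the lower limit of detection. Its counts in the young mice were 10, 7, 11 and 6, and in the aged mice 12, 60, 10 and 2. A single library, aged mouse 2, held most of the aged counts. The means were 0.522 ± 0.193 CPM in young and 1.28 ± 1.76 CPM in aged mice, where 3 counts correspond to between 0.147 and 0.204 CPM. The log2 fold change of 1.26 (SE 0.89, adjusted p = 0.389) became -0.31 (adjusted p = 0.736) without aged mouse 2.

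Avpr2 was measured at 10.2, 11.6, 14.3 and 15.04 CPM in the young mice and at 9.15, 9.30, 10.9 and 11.5 CPM in the aged mice. Both aged mice 3 and 4 lay below all young mice, and aged mice 1 and 2 lay within the young range. The means were 12.8 ± 2.27 and 10.2 ± 1.18 CPM, and the log2 fold change was -0.32 (SE 0.15, 95% interval -0.67 to 0.024, adjusted p = 0.223). Per length Avpr2 was among the scarcer of these genes, at 7.05 ± 1.25 FPKM in young and 5.64 ± 0.648 FPKM in aged mice. Against 9 principal cell markers, among them the sodium channel subunits Scnn1b and Scnn1g, of which 0 passed the adjusted p in edgeR and 3 had an unadjusted p below 0.05, the difference was -0.17 (exact permutation test, p = 0.143, adjusted p = 0.321).

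Aqp2 was measured at 132, 79.9, 97.3 and 92.7 CPM in young mice 1 to 4 and at 271, 92.0, 138 and 91.0 CPM in aged mice 1 to 4. The highest mouse of each group was the one with most Slc14a2 counts. The means were 101 ± 22.3 and 148 ± 84.9 CPM, with a log2 fold change of 0.56 (SE 0.34, 95% interval -0.22 to 1.34, adjusted p = 0.326). Without aged mouse 1 the fold change was 0.092 (adjusted p = 0.807), and without both aged mouse 1 and young mouse 1 it was 0.25. The principal cell markers gave no single direction in aged mouse 1. Their summed level was 304 CPM there, the lowest of all 8 mice (318 to 393 CPM in the others), whereas their mean log2 level was 4.68, the highest of all (4.12 to 4.602 in the others). Relative to that mean log2 level Aqp2 differed by 0.57 (exact permutation test, p = 0.0857, adjusted p = 0.257). Without aged mouse 1 this difference was 0.34 (adjusted p = 0.450 in the exact permutation test). The part of the inner medulla genes in the level of Aqp2 was not tested.

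Aqp3 varied little. It was measured at 76.1, 85.8, 88.9 and 73.5 CPM in young mice 1 to 4 and at 76.6, 70.1, 89.1 and 70.2 CPM in aged mice 1 to 4. The groups overlapped over nearly their whole range, and aged mouse 1, with most Aqp2, lay in the middle of the Aqp3 range. The means were 81.1 ± 7.45 and 76.5 ± 8.93 CPM, with a log2 fold change of -0.084 (SE 0.10, 95% interval -0.32 to 0.15, adjusted p = 0.633). The direction turned to 0.030 with library size as the only scaling, which shifts the median gene from 0.029 to 0.14. There were 3.54 Aqp2 counts per Aqp3 count in aged mouse 1 and between 0.93 and 1.74 in the other mice. Likewise there were 23.5 Aqp2 counts per Avpr2 count in aged mouse 1 and 14.8 in aged mouse 3, against 6.81 to 9.94 in the other 6 mice. Aqp2 thus varied against both of its partners, most in aged mouse 1.

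Aqp4 (ENSMUSG00000024411, chr18:15547903-15562193 in mm9) was the most variable of the tested members within each age group. It was measured at 54.9, 13.8, 21.97 and 40.7 CPM in young mice 1 to 4 and at 187, 30.3, 3.15 and 16.4 CPM in aged mice 1 to 4. Its lowest and its highest value were both in aged mice, and the young mice lay between them. The SD of its log2 level was 2.41 in aged mice, larger than in 99.9% of all genes tested, and 0.89 in young mice, larger than in 99.4%. The log2 fold change of 0.85 (SE 0.98, 95% interval -1.37 to 3.08, adjusted p = 0.606) became -0.996 (adjusted p = 0.377) without aged mouse 1 and -0.63 (adjusted p = 0.640) without aged mouse 1 and young mouse 1. Like Aqp2, Aqp4 was highest in mouse 1 of each group, and the part of the inner medulla genes in this was not tested.

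**Figure D3:**
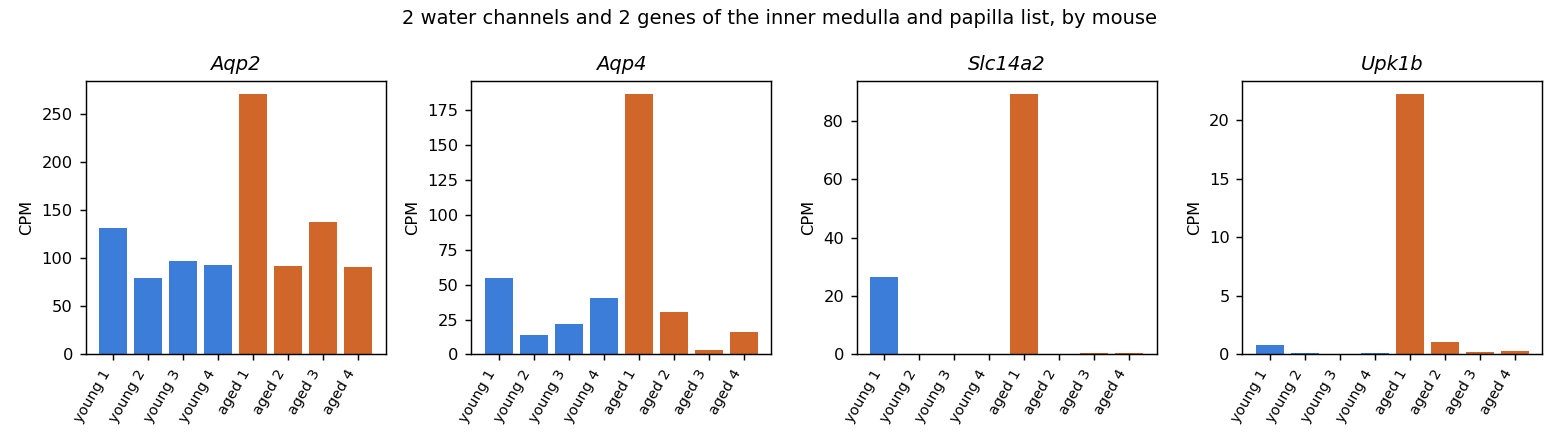
Aqp2, Aqp4 and 2 inner medulla and papilla genes in each of the 8 mice (bars from 0, CPM). Aged mouse 1 is the highest in every panel, at 271 CPM for Aqp2 and 187 CPM for Aqp4, beside 89.2 CPM of Slc14a2 and 22.3 CPM of Upk1b.

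Aqp6 was the steadiest member among the aged mice. It was measured at 41.8, 35.0, 37.6 and 34.6 CPM in young mice 1 to 4 and at 37.9, 36.5, 37.4 and 35.5 CPM in aged mice 1 to 4. All 4 aged values lay within the young range. The means were 37.3 ± 3.30 and 36.8 ± 1.07 CPM, with a log2 fold change of -0.017 (SE 0.081, 95% interval -0.20 to 0.17, adjusted p = 0.908), whose sign changed with upper-quartile scaling (0.022) and with library size only (0.094), and which was -0.031 without aged mouse 1. The SD of its log2 level in aged mice, 0.042, was at percentile 1.07 of all genes tested. Relative to 10 intercalated cell markers, which summed to between 433 and 548 CPM in young and between 351 and 531 CPM in aged mice, Aqp6 differed by 0.26 (exact permutation test, p = 0.200, adjusted p = 0.360), and by 0.13 without aged mouse 1.

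Aqp5, which lies between Aqp2 and Aqp6 on the chromosome, had 1, 1, 0 and 1 counts in young mice 1 to 4 and 21, 7, 0 and 4 in aged mice 1 to 4. In 3 of the 4 aged mice the count exceeded that of every young mouse, and in aged mouse 3 it was 0, which allows up to 0.1603 CPM (3 counts). The sums were 32 counts in aged and 3 in young mice, a ratio of 9.78 (95% interval 3.06 to 49.9) relative to the TMM-scaled library sizes. Without aged mouse 1 the sums were 11 and 3, a ratio of 4.67 (1.23 to 26.1). These intervals cover counting error only and not the spread between mice. When the filter was dropped the adjusted p of Aqp5 in edgeR was 0.154. Of the aquaporins outside the set, Aqp9 summed to 10 counts in each age group, and Mip and Aqp12 had 0 counts in all libraries.

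**Figure D4:**
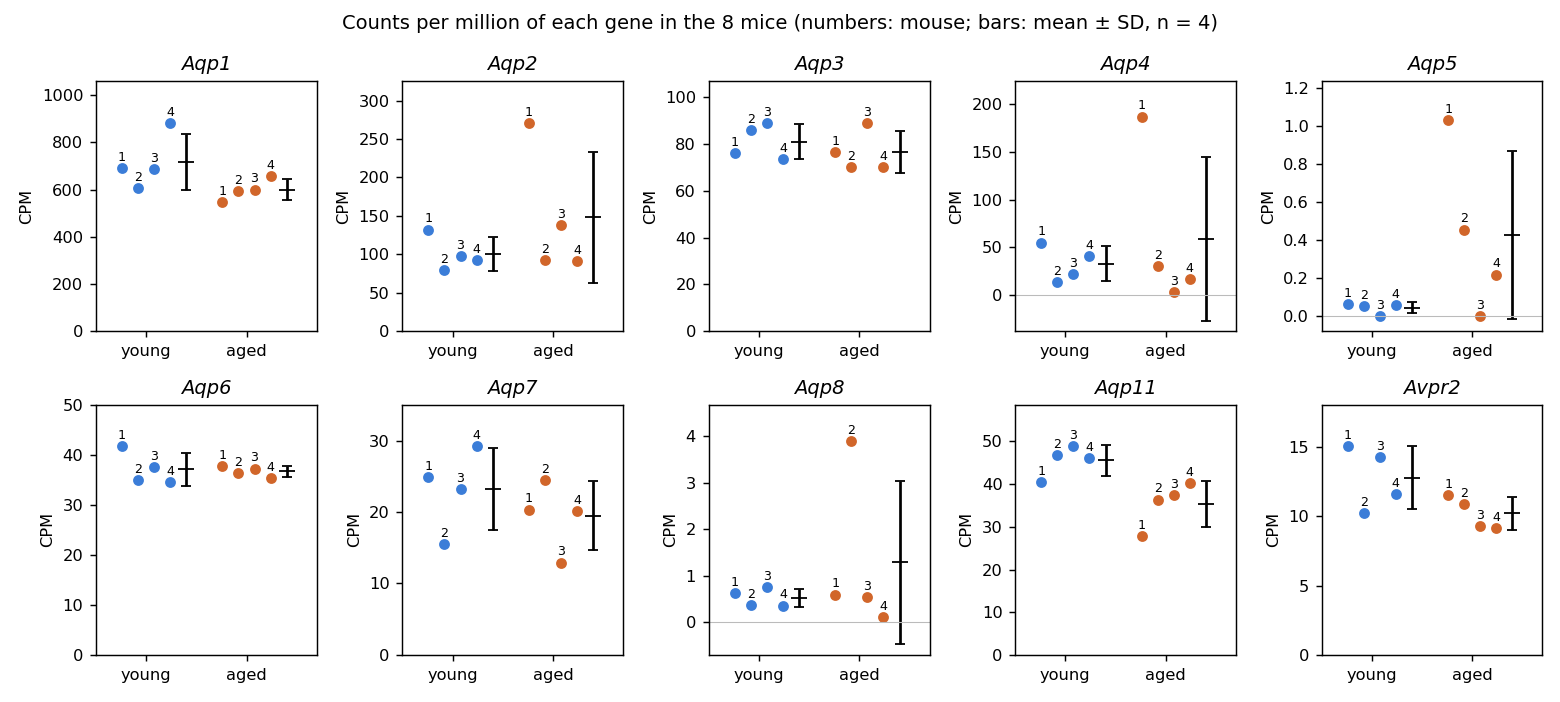
CPM of the 10 genes in each mouse (numbers give the mouse; bars are the mean ± SD, n = 4), each panel on its own axis. Aqp11 is the gene whose groups stay apart, at 40.4 to 48.8 CPM in young and 27.8 to 40.2 CPM in aged mice, and aged mouse 1 lies far above the rest of its group in Aqp2 and Aqp4.

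Aqp7 was measured at 24.8, 15.5, 23.3 and 29.2 CPM in young mice 1 to 4 and at 20.3, 24.5, 12.9 and 20.1 CPM in aged mice 1 to 4. The groups overlapped, and the means were 23.2 ± 5.71 and 19.5 ± 4.81 CPM with a log2 fold change of -0.25 (SE 0.23, 95% interval -0.77 to 0.26, adjusted p = 0.504). It ranged from -0.10 without aged mouse 3 to -0.40 without young mouse 2. The 6 markers of the S3 segment, in which kidney Aqp7 is made, had log2 fold changes below 0. They ranged from -0.16 for Slc5a10 (adjusted p = 0.844 in edgeR) to -4.02 for Slc22a7. The difference of Slc5a10 was smaller than that of Aqp7, but its aged mice lay on both sides of the young mice. Slc5a10 was at 297.5 CPM in aged mouse 1, above all young mice (135.8 to 184.3 CPM). In aged mice 2 to 4 it was at 121.9, 50.56 and 102.5 CPM, below all young mice. The median log2 fold change of the 6 S3 markers was -1.66, beside 0.029 over all genes tested. Of the 6, 0 passed the adjusted p and 5 had an unadjusted p below 0.05 in edgeR. Slc22a7, an organic anion transporter, was at 108 ± 55.2 CPM in young and 6.61 ± 10.5 CPM in aged mice (SE of the log2 fold change 0.99, adjusted p = 0.0615). The summed S3 level was between 3464 and 5153 CPM in young mice and between 840 and 2986 CPM in aged mice.

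Relative to the mean log2 level of these S3 markers, Aqp7 was at -3.74, -3.29, -3.10 and -3.41 in the young mice and at -1.04, -1.12, -0.73 and -2.53 in the aged mice. All aged values lay above all young values in this relative measure. The difference was 2.03 on the log2 scale (exact permutation test, two-sided, p = 0.0286, the smallest that 4 against 4 mice can give), and with adjustment over the 9 members p = 0.257. It ranged from 1.82 to 2.42 as each mouse was left out, and was 1.805 without both aged mouse 1 and young mouse 1 and 1.51 with the median of the S3 list in place of its mean. In the aged mice the mean of the S3 markers stood at -1.02 to -3.46 from the young mean, while Aqp7 itself had a log2 fold change of -0.25. The relative difference thus comes mostly from the lower S3 markers that Aqp7 is set against. That list was chosen with earlier results of these data known. Fat cells, which also express Aqp7, were followed by 7 markers, of which 6 were tested. None of the 6 passed the adjusted p, all 6 had an unadjusted p below 0.05 in edgeR, and their median log2 fold change was 3.11. The adipocyte markers summed to 528, 147, 38.8 and 83.2 CPM in aged mice 1 to 4 and to 25.6 to 66.8 CPM in the young mice. Adipoq, the adiponectin gene, was at 37.6, 10.02, 1.55 and 6.10 CPM in aged mice 1 to 4. Aqp7 itself was highest in aged mouse 2 and lowest in aged mouse 3 within the aged group, and the part of fat cell RNA in its level was not tested.

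**Figure D5:**
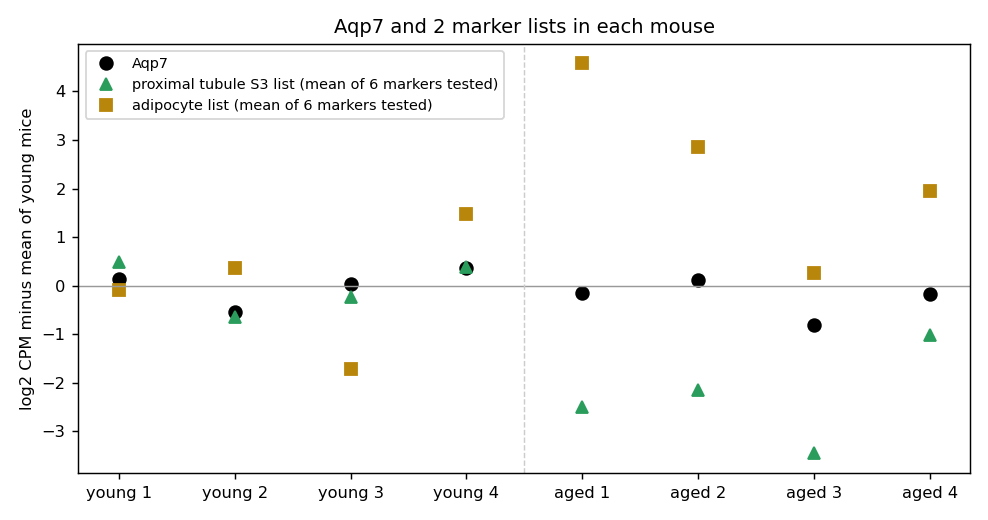
Log2 CPM minus the mean of the young mice for Aqp7 (circles) and for the means of 6 S3 markers and 6 adipocyte markers, in each mouse. The S3 markers lie between 1.02 and 3.46 below the young mean in the aged mice, the adipocyte markers between 0.26 and 4.58 above it, and Aqp7 overlaps between the groups, with its lowest value in aged mouse 3.

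The machinery between Avpr2 and Aqp2 was followed with a list of 30 genes for receptors, G protein, cyclases, kinases, anchoring proteins and phosphodiesterases, of which 28 were tested. At an adjusted p below 0.05 in edgeR 2 were higher and 0 lower in aged mice, beside 1.51% and 1.44% of all genes tested. At an unadjusted p below 0.05 there were 5 of the 28, beside 25.5% of all genes tested. The median log2 fold change of the list was 0.11. Pde3b, a phosphodiesterase that breaks down cyclic AMP, was at 27.2 to 30.7 CPM in young mice and at 62.1, 59.7, 58.4 and 40.9 CPM in aged mice 1 to 4, a log2 fold change of 0.91 (SE 0.13, adjusted p = 0.0206). Akap7, which anchors protein kinase A and is found on Aqp2 vesicles, was at 16.0 to 18.8 CPM in young and 25.1 to 32.9 CPM in aged mice, a log2 fold change of 0.71 (SE 0.11, adjusted p = 0.0251). Both rose in every aged mouse above every young mouse. Pde3b is also abundant in fat cells, whose summed markers are given above, and the part of those cells was not tested. The next gene by p was Adcy9, an adenylyl cyclase, at -0.29 (adjusted p = 0.0995). Gnas, the stimulatory G protein itself, was at 505 to 558 CPM in young and 444 to 492 CPM in aged mice (adjusted p = 0.199 in edgeR). Adcy6, the main cyclase of the vasopressin response, had a log2 fold change of 0.17 (adjusted p = 0.369 in edgeR). Its level was 179 CPM in aged mouse 1 and 133, 145 and 125 CPM in aged mice 2 to 4, beside 130 ± 3.86 CPM in young mice. Gnas and Adcy6 were named after their values were seen.

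Vesicle traffic and turnover of Aqp2 were represented by 21 genes, all tested, of which 0 passed the adjusted p in edgeR and 8 had an unadjusted p below 0.05. Over all genes tested the share at that unadjusted p was 25.5%. The median log2 fold change of the list was -0.17, beside 0.029 over all genes tested, and 16 of the 21 lay below 0. In aged mice 1 to 4 the list's mean log2 level stood at -0.34, -0.15, -0.096 and -0.029 from the young mean. The 3 genes with the smallest p each had groups that did not overlap. Nedd4l, a ubiquitin ligase, differed by -0.38 (adjusted p = 0.0597), Rab11fip2, a recycling endosome protein, by 0.33 (adjusted p = 0.0604) and Vamp3, a vesicle fusion protein, by -0.33 (adjusted p = 0.0958). Without aged mouse 1 the adjusted p in edgeR was 0.0386 for Nedd4l and 0.0448 for Rab11fip2. Their log2 fold changes of -0.41 and 0.27 were then still under the 1.5-fold limit, so neither was called. Leaving out 1 young mouse gave an adjusted p of 0.124 to 0.162 for Nedd4l and 0.132 to 0.166 for Rab11fip2. With all 8 mice DESeq2 gave an adjusted p of 0.00358 for Nedd4l, 0.0102 for Rab11fip2 and 0.0444 for Vamp3. In limma-voom these were 0.0243, 0.0423 and 0.0662. None of the 3 genes passed the 1.5-fold limit in either tool.

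Among transcription factors of the collecting duct and of the osmotic response, Nfat5, the factor that responds to tonicity, was at 207, 217, 199 and 209 CPM in young mice 1 to 4 and at 342, 210, 258 and 246 CPM in aged mice 1 to 4. Aged mouse 1 was the highest, and aged mouse 2 lay within the young range. The log2 fold change of Nfat5 was 0.34 (adjusted p = 0.166 in edgeR). Pparg, a factor of fat cells and of the collecting duct, was at 15.7, 3.77, 2.03 and 3.27 CPM in aged mice 1 to 4 and at 1.36 to 3.14 CPM in young mice, and aged mouse 1 carried most of its log2 fold change of 1.43 (adjusted p = 0.190). Without that mouse the log2 fold change was 0.38 for Pparg (adjusted p = 0.474) and 0.19 for Nfat5 (adjusted p = 0.180).

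Among 7 osmolyte genes downstream of Nfat5, 5 were tested, and Hspa4l, a chaperone induced by osmotic stress, was lower in aged mice. It was at 76.6 to 103 CPM in young and 44.9 to 62.1 CPM in aged mice (log2 fold change -0.76, SE 0.13, adjusted p = 0.0294). The next by p, the taurine transporter Slc6a6 and the heat shock gene Hspa1b, had log2 fold changes of 0.53 (adjusted p = 0.171) and 1.05 (adjusted p = 0.304), the latter 0.45 (adjusted p = 0.634) without aged mouse 1. The transporters that build the medullary gradient gave 0 of 10 past the adjusted p in edgeR and 3 at an unadjusted p below 0.05, among them Umod, the uromodulin gene of the thick ascending limb, at -0.55 (adjusted p = 0.183) and Bsnd, the barttin gene, at -0.28 (adjusted p = 0.194). Glycerol handling, the context of Aqp3 and Aqp7, gave 0 of 5 past the adjusted p and 1 at an unadjusted p below 0.05. That gene, the lipase Mgll, was at 44.4 to 65.2 CPM in young and 69.5 to 161 CPM in aged mice (log2 fold change 0.79, adjusted p = 0.128), and the lipases Pnpla2 and Lipe followed at 1.19 (adjusted p = 0.223) and 0.82 (adjusted p = 0.241), each highest in aged mouse 1. Without that mouse the log2 fold changes were 0.41 for Mgll (adjusted p = 0.0975), 0.14 for Pnpla2 (adjusted p = 0.618) and 0.15 for Lipe (adjusted p = 0.542).

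The calls of Pde3b, Akap7 and Hspa4l rest on all 4 young mice, as do most calls in these data. Over all genes tested the 287 calls fell to 8, 35, 14 and 12 without young mice 1, 2, 3 and 4. Each of the 3 genes kept its direction but lost the call when any 1 young mouse was left out. Their adjusted p in edgeR was then between 0.0640 and 0.103. Hspa4l also lost the call without aged mouse 2 (adjusted p = 0.0513). Without both aged mouse 1 and young mouse 1 the adjusted p was 0.0561 for Pde3b, 0.0531 for Akap7 and 0.0754 for Hspa4l. With the replicate number as a block Akap7 (adjusted p = 0.0531) and Hspa4l (adjusted p = 0.0599) lost it too. With all 8 mice Pde3b and Akap7 kept the call in DESeq2 (adjusted p = 6.16e-07 and 8.04e-06) and in limma-voom (adjusted p = 0.00853 and 0.00979).

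The genes whose log2 levels most resembled those of 3 members were ranked by Pearson correlation over the 8 mice among 11435 genes, as a description that mixes age, depth and tissue makeup. Aqp1 was most like Rab21 (0.983), Elovl7 (0.960), Fbxl18 (0.954), Klhdc2 (0.954) and Hibch (0.941). Aqp2 was most like Plcd1 (0.977), Eif3m (0.973), Myd88 (0.973), Utp15 (0.969) and Slc7a6 (0.969), and without aged mouse 1 these fell to between 0.865 and 0.939. Avpr2 was most like Bmyc (0.971), Lynx1 (0.970), Lgals3 (0.963), Acsl5 (0.95) and Egr1 (0.941). None of these genes is in the lists above.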

How the data were processed

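Kidney cortex RNA was depleted of ribosomal RNA and sequenced as stranded paired ends, one library per mouse. TopHat2 aligned the reads to mm9 and HTSeq counted them by strand, and the authors deposited raw counts per gene without normalization. Program versions other than CASAVA 1.8.2 are not given in the sources used here. The joint count table was used, and its columns were matched to the samples by name. Between 14820804 and 19821429 reads were counted on genes per library, and lines that name no gene, 59.4% to 64.5% of all lines' counts, were left out. No libraries were duplicates (smallest chi-square per gene 9.43).

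Groups came from the sample labels. Counts were tested with edgeR 4.0.16 in R 4.3.3 (quasi-likelihood, TMM, filterByExpr with minimum count 10, Benjamini-Hochberg adjustment over all genes tested). Alternatives were DESeq2 1.42.0, limma-voom 3.58.1 with sample quality weights, robust fitting, other scalings and filters, the replicate number as a block and each mouse left out. Leaving out aged mouse 1 and young mouse 1 was chosen after seeing the data. Log2 CPM used a prior count of 2. Levels relative to marker lists were compared by exact permutation over the 8 mice. Lengths came from GENCODE for mm9, copies from BLAST 2.17.0 (98% identity, windows of 100 nt) and promoters from RefSeq. The edgeR, DESeq2 and limma-voom fits and the exact permutation test were checked on simulated data. Genes named are the members, listed genes past the adjusted p, the 3 smallest p of each pathway list and the 5 genes most like Aqp1, Aqp2 and Avpr2. The members and lists were chosen with earlier results of these data known. Some listed genes are not reported here.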

Additional observations from a re-analysis of the deposited data

Results flagged for a closer look

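Values of 1 mouse far from the other 3 of its group were sought as the gap to the nearest mouse divided by the group's range, with Dixon's 95% critical value as the limit, which chance passes in about 1 of 20 groups. Aqp4 in aged mouse 1 stood above its group with a share of 0.852. Aqp8 in aged mouse 2 stood above its group with 0.873. Aqp5 in young mouse 3, with 0 counts against 1 in each of the others, stood below its group with 0.858. The level of Aqp2 relative to its principal cell markers in young mouse 1 stood above its group with 0.932. Of the marker lists, the distal convoluted and connecting tubule list stood low in aged mouse 1 with 0.885, and the leukocyte list stood high in young mouse 1 with 0.937. These are 6 of 68 groups of values examined, where 3.4 are expected by chance.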

How the results depend on the processing

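No member passed the adjusted p under any alternative run, and the smallest adjusted p of any member was 0.0641, for Aqp11 in DESeq2. Aqp1, Aqp7, Aqp11 and Avpr2 stayed below 0 and Aqp2 above 0 throughout. Genes called higher in aged mice numbered 368 with library size only, 486 with DESeq2, 73 with the replicate block, 32 without aged mouse 1 and young mouse 1, and 5 to 329 as each mouse was left out. Genes called lower numbered 201 with no fold threshold, 387 with DESeq2, 245 with limma-voom, 57 with the block, 19 without both mice and 3 to 404 as each mouse was left out, the fewest without young mouse 1 and the most without aged mouse 4. The share of calls that were higher was 75.4% with library size only.

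Aqp3 turned to 0.030 with library size only. Aqp4 turned to -1.08 in limma-voom, -0.16 with the block and -0.63 without both mice, and ranged from -0.996 to 1.25 as each mouse was left out. Aqp6 turned to 0.022 with upper-quartile scaling, 0.094 with library size only and 0.028 without both mice, and ranged from -0.050 to 0.042 over mice left out. Aqp8 ranged from -0.31 to 1.65. Relative to segment markers, the median of the list in place of its mean gave 0.45 for Aqp1, -0.16 for Aqp3 and 0.32 for Aqp11, and leaving out mice gave -0.061 to 0.16 for Aqp3, -1.04 to 0.76 for Aqp4 and -0.19 to 1.12 for Aqp8. The cause of these changes was not tested beyond what the left-out mice show.

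Mice with the same replicate number did not deviate together in every pair (correlations 0.206, 0.038, 0.199 and -0.030). For most aged mice the young mouse of the same number gave the highest correlation, though the values were small. So few and small correlations cannot decide whether the numbers pair the mice. With the replicate block 130 genes were called in place of 287, and Aqp2 and Aqp11 had an unadjusted p below 0.05. At these depths members under 1 CPM (Aqp5, Aqp8) rest on few counts.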
